A study of Homo sapiens with 15 samples.

Results

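Cells of the established human embryonic stem cell line H9 were compared on day 2 and day 1 of differentiation to definitive endoderm, the germ layer that forms gut, liver and pancreas. On day 2 the 3 libraries held cells that had spent their first 24 hours in activin A with CHIR99021 and the following day in activin A without CHIR99021. On day 1 the 3 libraries held cells taken at the end of the 24 hours with both agents. The labels name no genetic change in either group, and both had been kept in E8 medium and passaged as single cells, and were differentiated in Advanced RPMI medium. The 6 libraries were chosen by the day in their labels from 15 bulk polyA RNA-seq libraries, and the 9 libraries of days 0, 3 and 4 entered the estimate of spread and the description of the course. H9 is a line from a single source, no library was kept in CHIR99021 on day 2, and no label tells whether a day's libraries were made from separate cultures. The withdrawal of CHIR99021 and the passing of another day in activin A therefore cannot be told apart here, and the p-values reflect only how these samples vary, which may be technical.

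CHIR99021 inhibits GSK3, the kinase that marks β-catenin for destruction, so that β-catenin accumulates and acts with the DNA-binding TCF and LEF factors as it does after a Wnt signal. Many of the genes switched on in this way encode restraints on the pathway itself. Activin A binds the receptors that Nodal also uses and acts through SMAD2 and SMAD3. In the mouse embryo a strong Wnt signal marks the posterior primitive streak and the mesoderm it gives rise to, and Nodal signalling marks the anterior streak and the endoderm.

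The gene that carried a match to the searched form of the TCF and LEF core motif in its promoter among those examined was SP5, a zinc finger transcription factor gene and Wnt target, which fell on day 2. It is shown because no other member examined held that form. The motif letters searched were CTTTGAT and its reverse complement ATCAAAG, and the capitals mark the match. Other forms of the motif were not searched and are not marked, here or in the other promoters. The sequence is the RefSeq promoter of SP5 in build GRCh38.p14, chr2:170715087-170715386, plus strand, from 250 bases before to 50 bases after the gene's start, and the match begins at position -109 from the start.
SP5: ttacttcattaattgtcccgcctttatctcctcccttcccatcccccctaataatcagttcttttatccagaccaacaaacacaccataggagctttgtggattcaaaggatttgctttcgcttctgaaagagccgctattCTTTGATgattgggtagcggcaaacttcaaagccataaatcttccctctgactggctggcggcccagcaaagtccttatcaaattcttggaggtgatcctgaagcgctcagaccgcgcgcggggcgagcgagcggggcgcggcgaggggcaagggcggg
Of 30 Wnt feedback and target genes, 17 matched a promoter in the table, and SP5 was the gene with a match. Among the 8 matched members that fell on day 2 the share was 12.5%. Over the 35116 promoters of the same length in the table, 2.62% held the searched letters, against 2.44% of the 450 matched genes of any kind that fell, 1.71% of the 643 that rose and 1.42% of the 11946 tested and matched genes that were not called. A match is a description of these letters and not a site of binding.

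Total counts of the 6 libraries ran from 70785986 to 115442078 on day 2 and from 69264028 to 100685830 on day 1. Levels are CPM, counts scaled to a common library size, given in the order of replicates 1, 2 and 4. Fold changes are log2 values, day 2 minus day 1, with an approximate standard error (SE) taken as the absolute value divided by the square root of the F statistic. Adjusted p-values are from edgeR's quasi-likelihood test with Benjamini-Hochberg adjustment over 17401 genes, and a gene was called at an adjusted p under 0.05. The CPM scale does not take gene length into account, so levels were compared between days and not between genes.

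Replicate 4 of day 2 stood apart from replicates 1 and 2. Over genes, the chi-square divided by its degrees of freedom was 82.3 between day 2 replicates 1 and 2, 872 between replicates 1 and 4 and 609 between replicates 2 and 4, and 77.9 to 175 among the day 1 libraries. Ribosomal protein genes took 2.07%, 2.10% and 5.15% of the counts on day 2, against 3.82%, 2.45% and 3.79% on day 1. On day 2 replicate 4 held the highest level in 73 of 80 ribosomal protein genes, in 22 of 22 genes of the ATF4 stress response, in 20 of 22 primitive streak genes and in 21 of 27 epithelial junction genes. It held the lowest level in 24 of 30 mitosis genes and 21 of 30 S phase genes. Over all genes tested it was the highest in 43.35% and the lowest in 42.83%. The part of these differences in the comparison was not tested beyond leaving the library out.

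**Figure D1:**
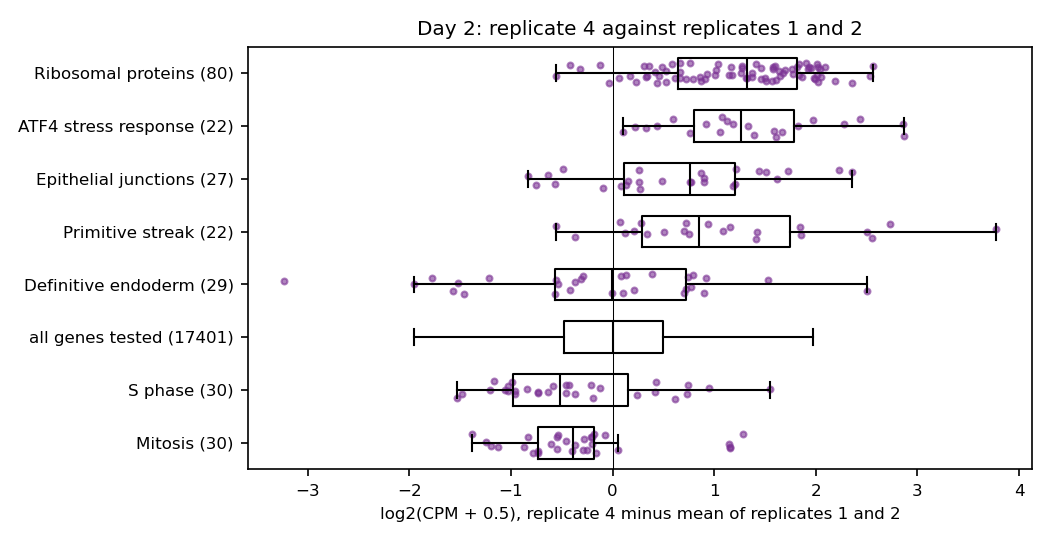
Each point is a gene of the list named at the left, placed by its log2(CPM + 0.5) in day 2 replicate 4 minus the mean of day 2 replicates 1 and 2; boxes span the quartiles with the median line and whiskers reach the furthest gene within 1.5 box lengths, and all genes tested are shown as a box only. Ribosomal protein genes (median 1.32) and ATF4 response genes (median 1.26) lie to the right, streak genes (0.85) also, and mitosis genes (-0.39) lie to the left.

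On day 2, 857 genes were higher (4.93% of the genes tested) and 582 were lower (3.34%), 8.27% in all, and the median over all genes was 0.00 on the log2 scale. The median change of the called genes was 2.30 for those that rose and -2.06 for those that fell, and 511 rose and 307 fell by more than 4-fold. The smallest called change was 0.81 upward and 0.78 downward on the log2 scale. At an unadjusted p under 0.05 edgeR had 3877 of the 17401 genes in either direction. DESeq2 called 1405 of the 17401 higher and 1053 lower. List counts at these cuts are to be read beside those totals. The libraries of both days did not overlap for 854 of the 857 higher and 581 of the 582 lower genes, against 17.2% and 18.5% of all genes tested with no overlap upward and downward. Without day 2 replicate 4, 775 genes were higher and 447 lower. Leaving out the other day 2 libraries gave 619 higher and 239 lower without replicate 1 and 490 and 183 without replicate 2. For day 1 they became 384 and 228 without replicate 1, 442 and 265 without replicate 2, and 501 and 312 without replicate 4. Called in each of these 6 fits were 359 of the higher and 165 of the lower genes.

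**Figure D2:**
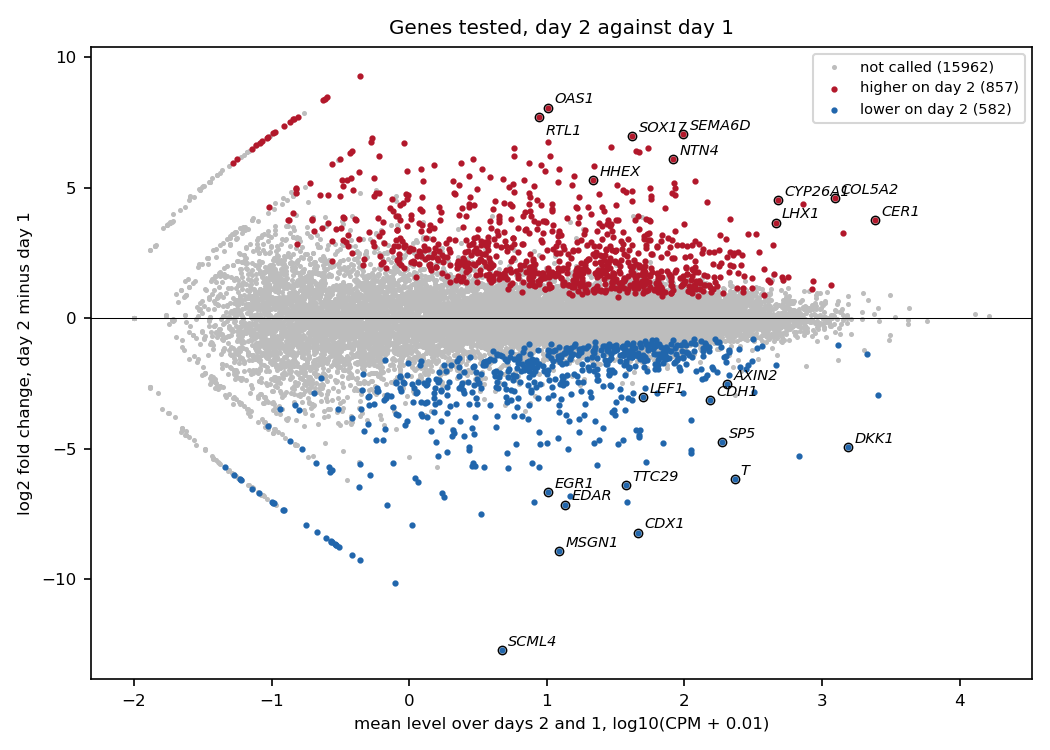
Each point is a gene tested, with the mean level over days 2 and 1 as log10(CPM + 0.01) along the bottom and the log2 fold change, day 2 minus day 1, up the side; red and blue points are called higher (857) and lower (582) on day 2. Labelled genes include SOX17, SEMA6D and COL5A2 among those that rose and CDX1, T and DKK1 among those that fell.

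The 4 marker genes separated the days. SOX17, a transcription factor gene of definitive endoderm, had 94.3, 67.2 and 87.1 CPM on day 2, against 0.277, 0.676 and 1.01 CPM on day 1. Every day 2 library was far above every day 1 library, and the change was 6.97 on the log2 scale (SE 0.59, adjusted p = 7.35e-06 by edgeR). CER1, which encodes a secreted antagonist of Nodal, BMP and Wnt ligands, had 4767, 5388 and 3458 CPM on day 2, against 382, 409 and 226 CPM on day 1. Its lowest day 2 value was above its highest day 1 value, and it rose by 3.74 (SE 0.71, adjusted p = 0.00377). AXIN2, a scaffold of the complex that degrades β-catenin and itself a Wnt target, had 58.1, 69.5 and 53.9 CPM on day 2, against 384, 435 and 223 CPM on day 1. CDX1, a homeobox gene of posterior tissues, had 0.258, 0.226 and 0.438 CPM on day 2, against 120, 87.2 and 67.0 CPM on day 1. No library of either day overlapped the other day for AXIN2 or CDX1, with log2 changes of -2.52 for AXIN2 (SE 0.38, adjusted p = 6.58e-04) and -8.22 for CDX1 (SE 0.76, adjusted p = 1.53e-05). In bulk samples, fewer cells that express a gene and less RNA per cell cannot be told apart.

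**Figure D3:**
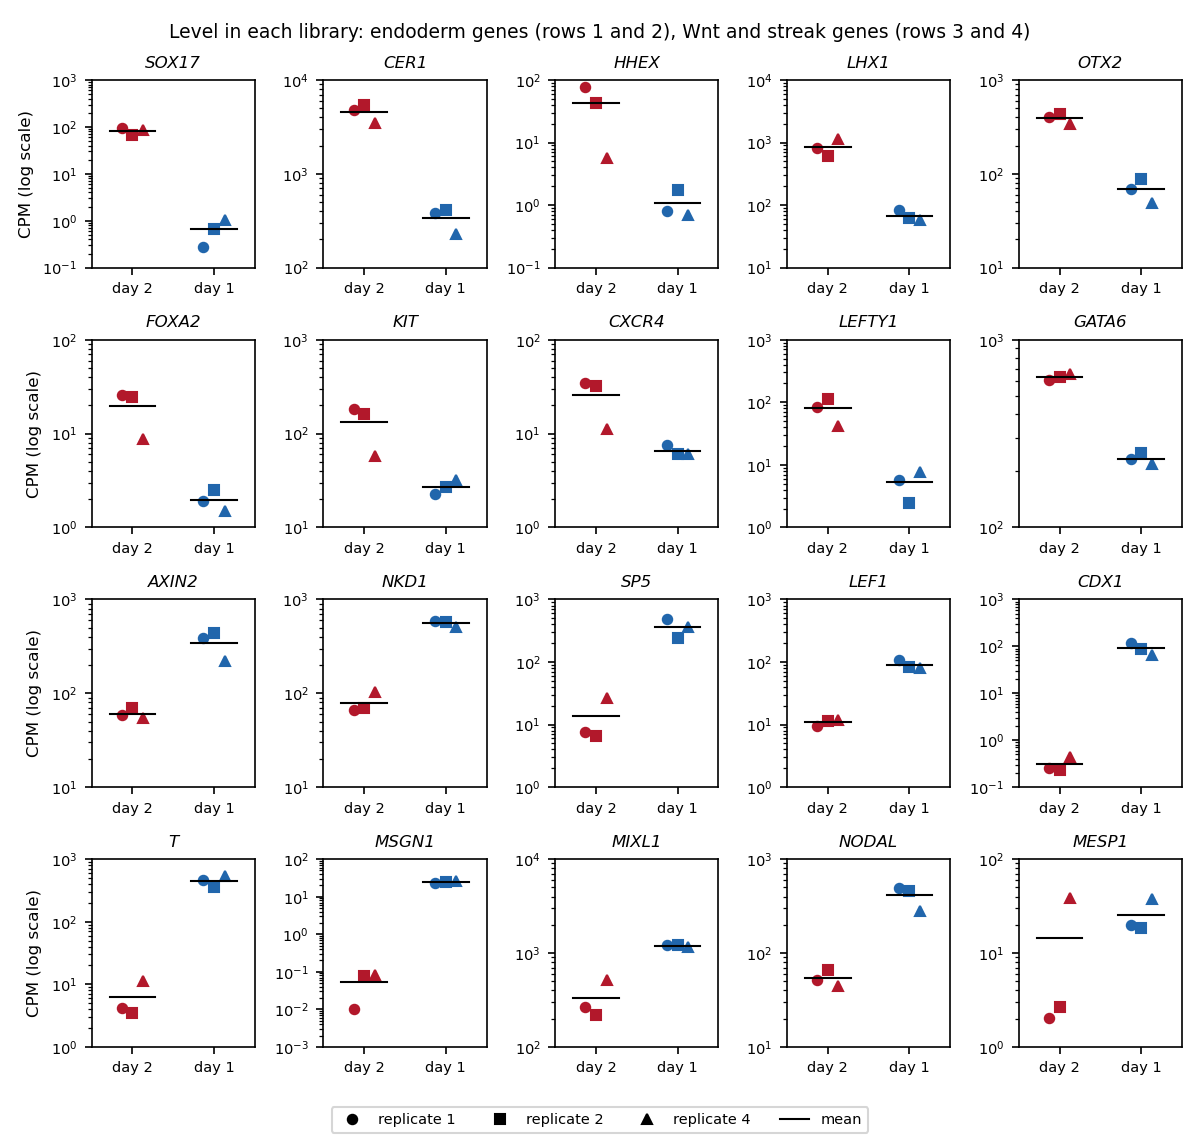
CPM in each library on a log scale, day 2 at the left (red) and day 1 at the right (blue) of each panel, with the replicate shown by the symbol and the mean by a line; a value of 0 is drawn at 0.01 (MSGN1 in day 2 replicate 1). The days do not overlap except for MESP1, and day 2 replicate 4 is the highest day 2 library for T, SP5, MIXL1 and MESP1 and the lowest for HHEX, FOXA2, KIT and CXCR4.

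Of 30 Wnt feedback and target genes tested, 14 fell and 4 rose, and their median change was -2.06 beside 0.00 for all genes. With a library left out, 11 to 13 fell and 4 rose. DKK1, which encodes a secreted inhibitor that binds the Wnt coreceptor, had 172, 86.4 and 32.1 CPM on day 2, against 3031, 3154 and 2775 CPM on day 1, a fall of 4.95 on the log2 scale (SE 0.82, adjusted p = 0.00144). DKK4, of the same family, had 59.5, 21.3 and 21.8 CPM on day 2, against 1158, 1039 and 1792 CPM on day 1 (-5.28, SE 0.99, adjusted p = 0.00361). For both genes every day 2 library lay more than an order of magnitude below every day 1 library, and day 2 replicate 1 was the highest of its day. SP5 had 7.48, 6.58 and 26.7 CPM on day 2, against 479, 243 and 365 CPM on day 1 (-4.74, SE 0.65, adjusted p = 3.37e-04), and day 2 replicate 4 held the highest day 2 level. NKD1, an inhibitor of the pathway component Dishevelled, had 65.9, 69.0 and 103 CPM on day 2, against 594, 570 and 512 CPM on day 1 (-2.82, SE 0.39, adjusted p = 3.88e-04).

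The factors that bring β-catenin to DNA moved in opposite directions. LEF1 had 9.50, 11.4 and 11.9 CPM on day 2, against 106, 83.4 and 78.9 CPM on day 1 (-3.03, SE 0.79, adjusted p = 0.0262). Its call was lost with any of the 6 libraries left out, with adjusted p-values of 0.0551 without day 1 replicate 4 to 0.1002 without day 2 replicate 1. TCF7L1, which acts mainly as a repressor in stem cells, had 38.7, 43.4 and 52.2 CPM on day 2, against 9.93, 6.99 and 8.11 CPM on day 1 (2.42, SE 0.27, adjusted p = 6.81e-05). TCF7L2 had 76.2, 66.5 and 51.4 CPM on day 2, against 15.8, 16.9 and 15.7 CPM on day 1 (2.00, SE 0.29, adjusted p = 5.61e-04). No day 2 library of these 3 genes reached into the range of day 1. TCF7, a further member of the family, fell by 2.67. The other members that rose were FZD7, a Wnt receptor gene (2.52, SE 0.45), and CYP26A1, whose enzyme breaks down retinoic acid. CYP26A1 had 811, 698 and 1233 CPM on day 2, against 40.4, 30.8 and 48.2 CPM on day 1 (4.52, SE 0.62, adjusted p = 3.55e-04).

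Among 16 Wnt ligand genes tested, 3 rose and 3 fell. WNT3A, a ligand of the streak, fell to 0.0184, 0.0753 and 0.274 CPM on day 2, against 6.74, 3.70 and 6.55 CPM on day 1 (-5.56, SE 0.98, adjusted p = 0.00217). WNT5B had 2.80, 5.05 and 10.1 CPM on day 2, against 258, 185 and 206 CPM on day 1 (-5.18, SE 0.67, adjusted p = 2.21e-04). WNT5A, its close relative, fell by 1.78, a call lost in 4 of the 6 fits with a library left out, those that lacked replicate 1 or 2 of either day, with adjusted p-values of 0.0532 to 0.0875. All day 2 libraries of these 3 ligands lay below all day 1 libraries. The ligands that rose were WNT4, WNT11 and WNT2B, and none of them kept its call in all 6 fits. WNT4 had 4.00, 11.3 and 47.6 CPM on day 2, against 0.194, 0.264 and 0.380 CPM on day 1 (6.21, SE 1.42, adjusted p = 0.0130), and its adjusted p was 0.0788 when day 1 replicate 1 was left out, 0.0701 for day 1 replicate 2 and 0.0555 for day 1 replicate 4.

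Of 24 Wnt receptor and R-spondin genes, 4 rose and 2 fell, with equal counts whichever library was left out. FZD5, a Frizzled receptor gene, had 165, 186.97 and 57.1 CPM on day 2, against 15.1, 13.7 and 19.7 CPM on day 1 (3.08, SE 0.64, adjusted p = 0.00696). FZD8 had 78.9, 77.9 and 115 CPM on day 2, against 13.7, 8.61 and 10.9 CPM on day 1 (3.03, SE 0.47, adjusted p = 8.72e-04). FZD10 had 0.276, 0.276 and 0.438 CPM on day 2, against 24.3, 11.4 and 16.1 CPM on day 1 (-5.71, SE 1.00, adjusted p = 0.00216). The receptor genes thus changed in both directions while the days stayed apart in every library. LGR4, a receptor for R-spondins, rose by 2.01 (SE 0.40), and RSPO3, which encodes an R-spondin that strengthens Wnt signals, fell by 4.57 (SE 0.96) with 6.79, 2.38 and 2.11 CPM on day 2, against 87.5, 90.7 and 90.3 CPM on day 1.

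Secreted Wnt antagonists also split. Of 18 tested, CER1, SFRP1 and SHISA2 rose and DKK1, DKK4 and NOTUM fell. SFRP1, a Wnt-binding protein gene, had 569, 497 and 133 CPM on day 2, against 26.7, 31.96 and 28.5 CPM on day 1 (3.78, SE 0.51, adjusted p = 3.24e-04). SHISA2, known in frogs to hold back Wnt and FGF receptors, had 58.4, 50.8 and 42.2 CPM on day 2, against 4.60, 4.90 and 2.88 CPM on day 1 (3.61, SE 0.52, adjusted p = 4.79e-04). The day 2 libraries were above those of day 1 for both genes, with replicate 4 the lowest of day 2. NOTUM, a secreted enzyme gene that inactivates Wnt ligands, fell by 2.12 (SE 0.46), a call lost without day 1 replicate 1 (adjusted p = 0.0588), day 2 replicate 1 (0.0597) and day 2 replicate 2 (0.0683).

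**Figure D4:**
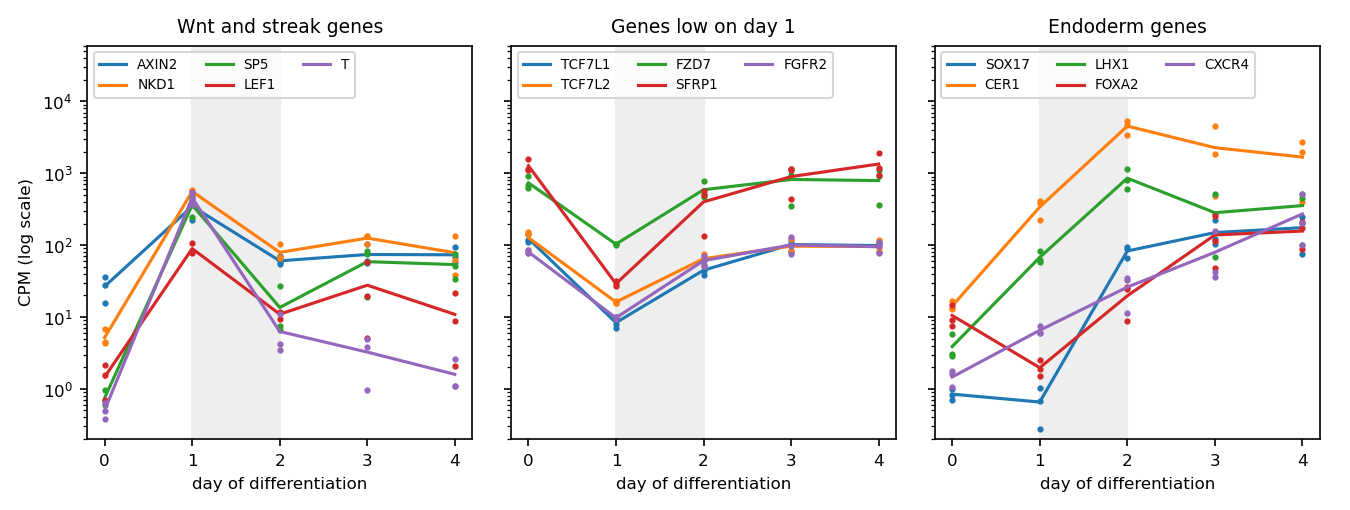
Mean CPM on a log scale (lines) and the 3 libraries of each day (points) from day 0 to day 4, with the interval from day 1 to day 2 shaded. AXIN2, NKD1, SP5, LEF1 and T peak on day 1, TCF7L1, TCF7L2, FZD7, SFRP1 and FGFR2 have their lowest mean on day 1, and SOX17, CER1, LHX1, FOXA2 and CXCR4 are higher on day 2 than on day 1.

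The plot of levels by day sets this interval in the course. AXIN2 averaged 26.6 ± 10.5 CPM on day 0, 347 ± 111 on day 1, 60.5 ± 8.07 on day 2, 74.1 ± 26.6 on day 3 and 73.5 ± 18.7 on day 4 (SD, n = 3 each). TCF7L1 averaged 123 ± 17.1 CPM on day 0, 8.34 ± 1.48 on day 1, 44.8 ± 6.88 on day 2, 102 ± 19.8 on day 3 and 98.6 ± 16.9 on day 4. AXIN2 was highest on day 1 and TCF7L1 lowest on that day, and the SDs of day 2 and day 1 did not meet for either gene. SFRP1 averaged 1274 ± 252 CPM on day 0, 29.0 ± 2.67 on day 1, 399 ± 234 on day 2, 899 ± 400 on day 3 and 1345 ± 503 on day 4, so its day 1 mean was also the lowest of the 5.

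Of 22 primitive streak genes, 9 fell and 1 rose, with a median of -1.69, or -3.12 without day 2 replicate 4, and 8 or 9 fell with a library left out. T, the brachyury gene of streak and notochord, had 4.23, 3.51 and 11.1 CPM on day 2, against 462, 364 and 542 CPM on day 1 (-6.18, SE 0.66, adjusted p = 4.78e-05). MSGN1, a regulator of presomitic mesoderm, had 0.00, 0.0753 and 0.0822 CPM on day 2, against 23.5, 24.2 and 25.6 CPM on day 1 (-8.92, SE 1.05, adjusted p = 1.11e-04). CDX2, a homeobox gene of posterior tissues and hindgut, had 0.331, 0.301 and 1.07 CPM on day 2, against 98.3, 75.6 and 52.8 CPM on day 1 (-7.07, SE 1.21, adjusted p = 0.00180). These genes were low in all 3 day 2 libraries, replicate 4 being the highest. Other streak genes did not pass. MIXL1 had 265, 219 and 513 CPM on day 2, against 1220, 1213 and 1158 CPM on day 1 (-1.85, SE 0.90, adjusted p = 0.244). Its days did not overlap, and in an edgeR fit of the 6 libraries alone its adjusted p was 0.00675. GSC, a homeobox gene of the anterior streak, had 18.1, 24.1 and 121 CPM on day 2, against 49.6, 26.9 and 46.2 CPM on day 1 (0.41, SE 1.23, adjusted p = 0.888), and MESP1, a factor of nascent mesoderm, had 2.03, 2.69 and 38.4 CPM on day 2, against 19.7, 18.4 and 37.2 CPM on day 1 (-0.81, SE 1.07, adjusted p = 0.717). In both, day 2 replicates 1 and 2 lay below every day 1 library and replicate 4 above them. Without day 2 replicate 4 the change of GSC turned to -0.96 (adjusted p = 0.687) and that of MESP1 was -3.42.

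Of 19 presomitic and paraxial mesoderm genes, 7 fell and 0 rose, with a median of -2.03, or -3.42 without day 2 replicate 4. DESeq2 called 8 lower and 0 higher, and at an unadjusted p under 0.05 edgeR had 10 lower and 0 higher. Beside MSGN1 they included FGF18, a growth factor gene, with 0.110, 0.0502 and 0.164 CPM on day 2, against 8.63, 3.61 and 4.58 CPM on day 1 (-5.68, SE 0.92, adjusted p = 0.00118). LFNG, which modifies Notch receptors, fell by 3.41 (SE 0.71) and the Notch ligand gene DLL1 by 3.08 (SE 0.70), the last with adjusted p = 0.0697 without day 2 replicate 2 and a change of -4.64 without day 2 replicate 4. ALDH1A2, whose enzyme makes retinoic acid, had 1.93, 2.06 and 1.84 CPM on day 2, against 10.7, 19.9 and 9.36 CPM on day 1 (-2.77, SE 0.57, adjusted p = 0.00629). The summed level of the list was 39.5, 37.6 and 190.5 CPM on day 2, against 208, 197 and 219 CPM on day 1, so that day 2 replicate 4 lay close to day 1. TBX6, a further regulator of this mesoderm, had 0.313, 0.703 and 5.29 CPM on day 2, against 6.10, 4.46 and 7.64 CPM on day 1, and did not pass (-1.53, SE 0.98, adjusted p = 0.393), with -3.59 without day 2 replicate 4. Of 20 Notch pathway genes, 5 fell and 0 rose, a count of 3 without day 1 replicate 2, day 1 replicate 4 or day 2 replicate 1 and 2 without day 2 replicate 2. DESeq2 called 6 lower and 0 higher, as did edgeR at an unadjusted p under 0.05. All but HES6 of the 5 were also counted among the presomitic and paraxial mesoderm genes that fell. The summed level of the Notch list was 637, 641 and 719 CPM on day 2, against 635, 596 and 639 CPM on day 1.

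HOX genes give cells their position along the body axis. Of 39 HOX genes in the table, 21 were tested, 6 fell and 2 rose. The sources used here do not state whether counting used the strand, so levels of genes with antisense partners, frequent in HOX clusters, are uncertain. HOXA3 had no count in any day 2 library, against 2.22, 1.88 and 0.579 CPM on day 1. Its day 1 mean was 44.0-fold above a floor of 3 counts per day 2 library. HOXB1 fell to 0.00, 0.00 and 0.0274 CPM on day 2, against 1.53, 1.44 and 1.09 CPM on day 1. HOXB2 rose, with 4.35, 6.28 and 7.10 CPM on day 2, against 1.11, 0.617 and 0.579 CPM on day 1 (2.94, SE 0.41, adjusted p = 3.94e-04). HOXB1 and HOXB2, of the same cluster, thus moved in opposite directions. The 6 lower calls became 4 without day 1 replicate 4 and 3 without any other single library, and the 2 higher calls became 1 without any library other than day 2 replicate 1.

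Of 19 lateral mesoderm and cardiac genes tested, 4 rose and 0 fell, with a median of 0.03. DESeq2 called 4 higher and 0 lower, and 4 were higher and 1 lower at an unadjusted p under 0.05 by edgeR. IRX3, a homeobox gene, had 45.7, 49.2 and 113 CPM on day 2, against 2.77, 2.09 and 2.01 CPM on day 1 (4.92, SE 0.50, adjusted p = 3.35e-05). HAND1, a factor of lateral mesoderm, heart and trophoblast, had 58.2, 96.6 and 215 CPM on day 2, against 17.4, 14.8 and 8.29 CPM on day 1 (3.19, SE 0.66, adjusted p = 0.00702). TBX20, a T-box gene of the heart, had 6.13, 9.54 and 11.0 CPM on day 2, against 0.971, 1.03 and 0.724 CPM on day 1 (3.29, SE 0.58, adjusted p = 0.00214). All 3 were above day 1 in every day 2 library, and replicate 4 was the highest. BMP4, the fourth, rose by 1.63 (SE 0.38), a call lost without day 1 replicate 1 (adjusted p = 0.0740), day 1 replicate 4 (0.0777) and day 2 replicate 2 (0.0625). Of 16 blood and endothelium genes, 2 rose and 2 fell, and of these FLI1, which rose, lost its call in 6 and TIE1, which fell, in 4 of the 6 fits with a library left out. LMO2, a blood and endothelial regulator, had 3.07, 2.51 and 2.71 CPM on day 2, against 41.4, 45.7 and 39.99 CPM on day 1 (-3.94, SE 0.39, adjusted p = 3.23e-05). CDH5, the cadherin of endothelium, had 0.571, 0.602 and 0.274 CPM on day 2 and no count on day 1. Its day 2 mean was 12.8-fold above a floor of 3 counts per day 1 library.

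Of 29 definitive endoderm genes, 13 rose and 1 fell, with a median of 1.97. The count that rose was 10 to 12 with a library left out. HHEX, a homeobox gene of anterior endoderm and later liver, had 78.5, 42.5 and 5.70 CPM on day 2, against 0.804, 1.76 and 0.706 CPM on day 1 (5.28, SE 1.08, adjusted p = 0.00648). Replicate 4 was far below the other day 2 libraries and still above day 1. FOXA2, a forkhead factor that opens chromatin in endoderm, had 25.9, 24.3 and 8.82 CPM on day 2, against 1.91, 2.50 and 1.503 CPM on day 1 (3.32, SE 0.58, adjusted p = 0.00206). KIT, a receptor used as a surface marker of definitive endoderm, had 181, 163 and 57.7 CPM on day 2, against 22.5, 26.9 and 32.2 CPM on day 1 (2.30, SE 0.50, adjusted p = 0.00899), and its call was lost without day 1 replicate 1 (adjusted p = 0.0544). Replicate 4 was the lowest day 2 library for these 3 genes, and none overlapped day 1.

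Not every endoderm gene passed. CXCR4, the chemokine receptor often used with KIT to sort endoderm, had 34.4, 32.4 and 11.3 CPM on day 2, against 7.52, 6.08 and 5.99 CPM on day 1 (2.00, SE 0.62, adjusted p = 0.0588). GATA6, a zinc finger factor of endoderm, had 612, 634 and 660 CPM on day 2, against 231, 248 and 218 CPM on day 1 (1.45, SE 0.57, adjusted p = 0.139). Both were higher in every day 2 library, and in a fit of the 6 libraries alone the adjusted p was 0.0103 for CXCR4 and 0.00152 for GATA6. GATA4 had 159, 140 and 259 CPM on day 2, against 95.4, 64.4 and 50.8 CPM on day 1, a rise of 1.41 (SE 0.39, adjusted p = 0.0351) that did not pass with any of the 6 libraries left out (adjusted p of 0.0529 without day 2 replicate 2 to 0.149 without day 1 replicate 4). EPCAM, an adhesion molecule gene of epithelia, was the member that fell, with 58.4, 60.4 and 39.9 CPM on day 2, against 241, 269 and 206 CPM on day 1 (-2.17, SE 0.45, adjusted p = 0.00654). In the fit of the 6 libraries alone, where 9.40% of 16020 genes were higher and 8.16% lower, 20 members were higher and 2 lower.

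Of 19 genes of the anterior endoderm and organiser, 7 rose and 1 fell, with a median of 1.15, and the 7 rose whichever library was left out. LHX1, a homeobox gene of the organiser, had 816, 605 and 1143 CPM on day 2, against 83.3, 61.5 and 58.0 CPM on day 1 (3.66, SE 0.67, adjusted p = 0.00285). OTX2, a head homeobox gene, had 400, 430 and 338 CPM on day 2, against 69.4, 89.1 and 48.6 CPM on day 1 (2.50, SE 0.46, adjusted p = 0.00310). PRDM1, a repressor gene, had 70.0, 120 and 26.4 CPM on day 2, against 3.47, 1.97 and 2.14 CPM on day 1 (4.84, SE 0.54, adjusted p = 7.06e-05). The days were apart in all 3, and the member that fell was DKK1. SHISA2, FZD8, CER1 and HHEX made up the rest of the 7. Of 16 later endoderm and gut tube genes, 2 rose, SOX2 among them, and CDX2 fell, and 1 rose without any library other than day 2 replicate 4, where 3 did.

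**Figure D5:**
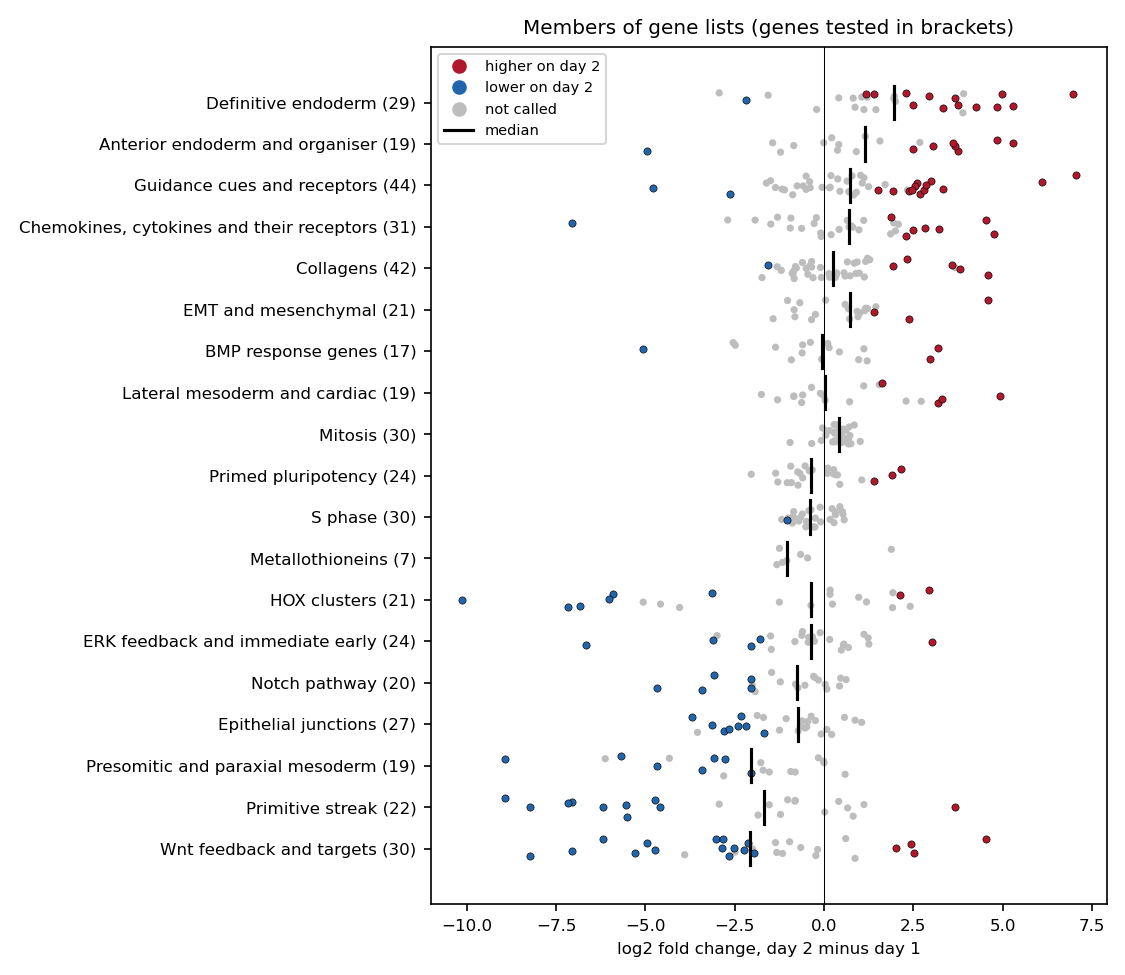
Each point is a tested gene of the list named at the left, with the number tested in brackets, placed by its log2 fold change, day 2 minus day 1; red and blue points were called higher and lower on day 2 and black bars are list medians. Medians run from -2.06 for Wnt feedback and target genes to 1.97 for definitive endoderm genes, and every list shown holds members that were not called.

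Ligands and coreceptors of the activin and Nodal pathway gave 1 lower call, ACVR1C, a receptor gene, and 0 higher among 15 tested. DESeq2 called 2 lower and 0 higher, and edgeR had 3 lower and 2 higher at an unadjusted p under 0.05. The ACVR1C call was lost in 6 of 6 fits with a library left out (adjusted p of 0.0759 to 0.104). NODAL itself had 51.6, 65.2 and 44.7 CPM on day 2, against 492, 461 and 282 CPM on day 1, with no overlap (-2.93, SE 1.13, adjusted p = 0.131). LEFTY1, a Nodal target that encodes a secreted Nodal inhibitor, had 82.9, 115 and 41.8 CPM on day 2, against 5.74, 2.41 and 7.80 CPM on day 1 (3.90, SE 1.73, adjusted p = 0.192). LEFTY2, its neighbour in the family, had 68.6, 140 and 67.5 CPM on day 2, against 5.41, 2.94 and 10.4 CPM on day 1 (3.88, SE 1.24, adjusted p = 0.0687). Ligand and inhibitors thus lay in opposite directions in every library, and none passed with the spread of all 5 days. That spread was wide for NODAL on days 3 and 4, with 54.1 ± 55.4 and 81.3 ± 90.7 CPM (SD, n = 3 each). Replicate 1 was the lowest library of days 3 and 4 for NODAL, with 2.49 and 1.63 CPM. The same held for LEFTY1 (0.720 and 1.20 CPM), LEFTY2 (14.3 and 42.4 CPM) and GATA6 (143 and 124 CPM). In the fit of the 6 libraries alone the adjusted p was 3.38e-04 for NODAL, 0.00145 for LEFTY1, 0.00149 for LEFTY2 and 0.00894 for EOMES, a T-box gene active in streak and early endoderm, which had 473, 472 and 548 CPM on day 2, against 250, 252 and 186 CPM on day 1. With all 15 libraries EOMES did not pass (1.12, SE 0.57, adjusted p = 0.269). Replicate 1 was also its lowest library of days 3 and 4 (60.3 and 81.6 CPM). LEFTY1 and LEFTY2 are close copies, and reads may be shared between them. Of 20 Nodal inhibitor and effector genes, CER1 and SMAD2 rose and DACT1 fell. SMAD2, a carrier of the activin signal, had 255, 233 and 151 CPM on day 2, against 85.6, 94.8 and 83.8 CPM on day 1, and its call was lost without day 1 replicate 1 (adjusted p = 0.0592) and day 1 replicate 4 (0.0503).

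In the BMP pathway, 4 of 13 antagonists rose and 1 fell. CHRDL1 was the member that fell (-1.77, SE 0.48), a call lost in 6 of 6 fits with a library left out (adjusted p of 0.0620 to 0.0980). BMPER, which binds BMP ligands outside the cell, had 70.2, 79.3 and 90.8 CPM on day 2, against 3.02, 3.50 and 1.65 CPM on day 1 (4.88, SE 0.72, adjusted p = 6.31e-04). FSTL1, a follistatin relative, rose by 1.39 (SE 0.24), and CER1 was also among those that rose. BMPER was above day 1 in every day 2 library. Of 17 BMP response genes, HAND1 and SMAD6 rose and MSX1 fell. MSX1, a homeobox gene, had 6.39, 3.69 and 9.26 CPM on day 2, against 239, 247 and 162 CPM on day 1 (-5.07, SE 1.13, adjusted p = 0.0110), and its call was lost without day 2 replicate 1 (adjusted p = 0.0521) and day 2 replicate 2 (0.0625). SMAD6, an inhibitor of BMP signalling, had 33.0, 40.1 and 112 CPM on day 2, against 8.10, 6.49 and 9.18 CPM on day 1 (2.96, SE 0.49, adjusted p = 0.00135).

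FGF ligands act through the ERK kinases. Of 22 FGF ligand and receptor genes, FGFR2 rose and FGF18, FGF4 and FGF19 fell. FGFR2 had 52.1, 59.9 and 70.5 CPM on day 2, against 9.46, 9.84 and 9.92 CPM on day 1 (2.64, SE 0.27, adjusted p = 3.33e-05). FGF19 had 4.07, 4.37 and 5.59 CPM on day 2, against 102, 106 and 62.6 CPM on day 1 (-4.27, SE 0.72, adjusted p = 0.00161). FGF4 fell by 4.59 (SE 1.02), with adjusted p = 0.0600 without day 2 replicate 2. The receptor and the ligands kept the days apart in all libraries. Of 24 ERK feedback and immediate early genes, 4 fell and 1 rose, and 2 fell without day 1 replicate 1, day 2 replicate 1 or day 2 replicate 2. EGR1, an immediate early zinc finger gene, had 0.276, 0.201 and 0.110 CPM on day 2, against 24.7, 19.1 and 16.9 CPM on day 1 (-6.66, SE 0.83, adjusted p = 1.64e-04). DUSP4, a phosphatase gene that restrains ERK, had 336, 343 and 384 CPM on day 2, against 48.5, 42.1 and 39.5 CPM on day 1 (3.03, SE 0.41, adjusted p = 3.31e-04).

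Epithelial junction genes fell in part: of 27 tested, 8 fell and 0 rose, with a median of -0.72, or -1.16 without day 2 replicate 4. DESeq2 called 12 lower and 0 higher, and edgeR had 14 lower and 1 higher at an unadjusted p under 0.05. CDH1, the epithelial cadherin, had 19.9, 18.3 and 55.3 CPM on day 2, against 266, 290 and 270 CPM on day 1 (-3.14, SE 0.83, adjusted p = 0.0283). GRHL2, a factor of epithelial identity, had 1.33, 1.03 and 3.37 CPM on day 2, against 13.98, 11.4 and 14.8 CPM on day 1 (-2.81, SE 0.64, adjusted p = 0.0122). No day 2 library reached day 1, and replicate 4 was the closest. These counts depended on single libraries: 4 fell with any of the day 1 libraries left out, and for day 2 the number was 2 without replicate 1, 1 without replicate 2 and 10 without replicate 4. CDH1 kept its call only without day 2 replicate 4, with adjusted p-values of 0.0722 to 0.141 in the other 5 fits, and GRHL2 lost its call without day 2 replicate 1 (0.0705) and day 2 replicate 2 (0.0766). Among 21 genes of mesenchymal transition, COL5A2, ZEB1 and SPARC rose and 0 fell, in each fit except that 1 fell without day 2 replicate 4. DESeq2 called 6 higher and 0 lower, and edgeR had 9 higher and 2 lower at an unadjusted p under 0.05. ZEB1, a repressor of epithelial genes, had 43.9, 43.4 and 24.5 CPM on day 2, against 7.71, 7.84 and 6.08 CPM on day 1 (2.37, SE 0.41, adjusted p = 0.00206).

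Of 42 collagen genes, 5 rose and 1 fell, and the 5 rose whichever library was left out. COL5A2, a fibrillar collagen gene, had 2035, 3086 and 1977 CPM on day 2, against 74.7, 128 and 91.2 CPM on day 1 (4.59, SE 0.39, adjusted p = 7.35e-06). COL13A1, a membrane collagen gene, had 98.3, 148 and 175 CPM on day 2, against 22.8, 25.4 and 36.4 CPM on day 1 (2.32, SE 0.29, adjusted p = 1.86e-04). COL14A1 was the member that fell (-1.58, SE 0.34), and 2 fell without day 2 replicate 4. Of 44 guidance cue and receptor genes, 13 rose and 2 fell, with a median of 0.74, and 10 to 13 rose with a library left out. SEMA6D, a membrane semaphorin gene, had 184, 207 and 194 CPM on day 2, against 1.55, 1.41 and 1.43 CPM on day 1 (7.06, SE 0.46, adjusted p = 1.26e-06). NTN4, a netrin gene, had 131, 161 and 199 CPM on day 2, against 1.80, 2.26 and 3.11 CPM on day 1 (6.09, SE 0.46, adjusted p = 5.40e-06). NRP2, a semaphorin receptor gene, had 547, 732 and 1030 CPM on day 2, against 128, 109 and 96.1 CPM on day 1 (2.79, SE 0.37, adjusted p = 2.53e-04). The day 2 libraries lay close together for SEMA6D and far above day 1 for all 3. SEMA3C, a secreted semaphorin gene, fell, with 1.73, 2.08 and 0.795 CPM on day 2, against 50.5, 48.9 and 28.9 CPM on day 1 (-4.80, SE 0.68, adjusted p = 4.28e-04).

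Of 31 chemokine, cytokine and receptor genes, 7 rose and 1 fell, and 4 rose without day 1 replicate 1. LIFR, a cytokine receptor gene, had 624, 726 and 436 CPM on day 2, against 49.7, 82.6 and 58.5 CPM on day 1 (3.23, SE 0.56, adjusted p = 0.00189). IL6ST, which encodes the chain that LIFR signals with, had 227, 233 and 215 CPM on day 2, against 31.7, 36.8 and 26.8 CPM on day 1 (2.83, SE 0.35, adjusted p = 1.65e-04). CXCR7, a receptor that takes up the ligand of CXCR4, had 47.6, 65.8 and 25.5 CPM on day 2, against 1.83, 1.97 and 1.30 CPM on day 1 (4.77, SE 0.81, adjusted p = 0.00180). All 3 receptors were higher in each day 2 library.

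Of 24 primed pluripotency genes tested, 3 rose and 0 fell, with a median of -0.37, and 1 rose without any library other than day 2 replicate 4. DESeq2 also called 3 higher and 0 lower, and edgeR had 4 higher and 2 lower at an unadjusted p under 0.05. POU5F1, the OCT4 gene, had 41.7, 43.4 and 215 CPM on day 2, against 480, 324 and 430 CPM on day 1 (-2.04, SE 0.90, adjusted p = 0.188, and -3.27 without day 2 replicate 4), so that replicate 4 stood well above the other day 2 libraries and below day 1. NANOG had 29.99, 40.8 and 36.6 CPM on day 2, against 63.7, 56.7 and 42.5 CPM on day 1 (-0.60, SE 0.58, adjusted p = 0.600). SOX2 was low on both days, with 5.41, 5.65 and 4.25 CPM on day 2, against 1.69, 0.617 and 1.14 CPM on day 1 (2.15, SE 0.56, adjusted p = 0.0257), and its call held only without day 2 replicate 4, with adjusted p-values of 0.0513 to 0.124 in the other 5 fits.

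Marker lists of other cell types also held called members, beside 8.27% of all genes called in either direction. Of 20 neural and surface ectoderm genes, NCAM1 rose and 0 fell, and 2 rose without day 2 replicate 4. DESeq2 called 2 higher and 1 lower, and edgeR had 4 higher and 2 lower at an unadjusted p under 0.05. The summed level of this list was 476, 500 and 528 CPM on day 2, against 381, 444 and 369 CPM on day 1. NCAM1, an adhesion molecule gene, had 130, 169 and 191 CPM on day 2, against 5.94, 6.08 and 6.64 CPM on day 1 (4.72, SE 0.39, adjusted p = 6.15e-06). The rise of NCAM1 was larger than that of the sum, so the other members together did not rise. The median change of this list was 0.18. Of 12 trophoblast and amnion genes tested, HAND1 and BMP4 rose and GABRP fell, and the summed level was 176, 288 and 407 CPM on day 2, against 95.2, 102 and 64.5 CPM on day 1. Most of that level on both days was from HAND1 and BMP4, also counted among the lateral mesoderm genes. The median change of the trophoblast and amnion list was -0.92. Of 16 extraembryonic endoderm genes, SPARC rose and RSPO3 fell, 2 rose without day 2 replicate 4, and the list had summed levels of 3098, 3592 and 3358 CPM on day 2, against 2066, 2192 and 1936 CPM on day 1. The trophoblast genes CGA, CGB, CGB5 and ELF5 and the ectoderm genes SOX1, KRT5 and KRT14 were too low to be tested. The part of other cell types in the changes above was not tested.

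Of 23 genes of G1 cyclins and inhibitors of their kinases, 2 rose and 1 fell, with a median of 0.01, beside 8.27% of all genes called in either direction. CDKN1B, an inhibitor of cyclin-dependent kinases, had 101, 99.5 and 53.6 CPM on day 2, against 18.1, 19.3 and 19.1 CPM on day 1 (2.17, SE 0.45, adjusted p = 0.00654). CDKN2C, an inhibitor of the cyclin D kinases, had 2.95, 2.06 and 0.575 CPM on day 2, against 0.166, 0.0294 and 0.0181 CPM on day 1 (4.73, SE 0.81, adjusted p = 0.00180). CCND1, the cyclin D1 gene and a Wnt target, had 127, 103 and 113 CPM on day 2, against 480, 511 and 351 CPM on day 1 (-1.97, SE 0.41, adjusted p = 0.00755), a call lost without day 2 replicate 2 (adjusted p = 0.0514). Both inhibitors were higher and the cyclin lower in all day 2 libraries. Of 30 S phase genes, MCM3 was lower and 0 higher (4 lower and 0 higher by DESeq2, 10 lower and 0 higher at an unadjusted p under 0.05), and MCM3 lost its call in each fit with a library left out, with adjusted p-values of 0.0597 to 0.164. Of 30 mitosis genes, edgeR called 0 in either direction, DESeq2 1 higher and 1 lower, and 5 were higher and 1 lower at an unadjusted p under 0.05 by edgeR.

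Named for the size of their change were several genes outside these groups. OAS1, an interferon-induced enzyme gene, had 7.55, 14.6 and 39.1 CPM on day 2, against 0.0277, 0.0587 and 0.127 CPM on day 1 (8.07, SE 1.16, adjusted p = 4.97e-04). RTL1, an imprinted gene of retrotransposon origin, had 16.2, 21.1 and 15.1 CPM on day 2, against 0.0555, 0.0294 and 0.145 CPM on day 1 (7.72, SE 0.62, adjusted p = 5.63e-06). RTL1 overlaps transcripts of the opposite strand, so its level is uncertain where counting ignored strand. ANGPT2, a ligand of the endothelial TIE2 receptor, had 64.1, 102 and 112 CPM on day 2, against 0.860, 0.822 and 1.72 CPM on day 1 (6.35, SE 0.84, adjusted p = 2.87e-04). TMOD1, which caps actin filaments, rose by 6.40 (SE 0.82).

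Among the largest decreases, SCML4, a Polycomb-related gene, had no count in any day 2 library, against 6.63, 10.6 and 11.0 CPM on day 1. Its day 1 mean was 265-fold above a floor of 3 counts per day 2 library. EDAR, the receptor of ectodysplasin, had 0.166, 0.0753 and 0.329 CPM on day 2, against 27.5, 22.3 and 30.9 CPM on day 1 (-7.15, SE 1.10, adjusted p = 8.21e-04). TNFRSF9, another receptor of the same superfamily, fell by 7.04 (SE 1.23), with 0.0184, 0.0251 and 0.329 CPM on day 2, against 22.0, 12.6 and 13.1 CPM on day 1. EGR2, a relative of EGR1, fell by 7.52 (SE 1.13), with 0.0921, 0.00 and 0.00 CPM on day 2, against 6.55, 4.52 and 8.69 CPM on day 1. Their day 2 levels lie near the floor, so the sizes of these falls are uncertain. TTC29, a gene known from the axoneme of sperm tails, had 0.755, 0.577 and 1.32 CPM on day 2, against 85.1, 70.7 and 66.9 CPM on day 1 (-6.40, SE 0.60, adjusted p = 1.83e-05). No day 2 library of these genes came near the range of day 1.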

How the data were processed

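The authors deposited unnormalized whole-number counts for each gene symbol and library, and TopHat2 2.0.14 and the build hg19 are named in the submitters' processing notes. Per the labels' protocols, RNA was purified on columns, polyA RNA was selected and directional libraries were made. Which program, annotation and strand setting were used for counting is not given in the sources used here. The table had 23398 entries, of which 52 repeated a symbol (44 identical ones were dropped and 8 summed), and 2605 of 23346 symbols had no count. No odd count occurred. No pair of libraries within day 2 or within day 1 agreed within sampling noise.

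Genes were tested on the deposited counts with edgeR 4.0.16 (quasi-likelihood F-test; R 4.3.3, limma 3.58.1), using TMM scaling, filterByExpr by day (17401 genes kept) and a mean per day over all 15 libraries, which gave a biological coefficient of variation of 45.6%. DESeq2 1.42.0, other scalings and filters, a fit of the 6 libraries alone (33.4%), the replicate number as a block and leaving out each library were alternatives. Tables were made with Python 3.11.15 and pandas 2.3.3. A count of 3, the floor used here, was 0.0276 to 0.0411 CPM on day 2 and 0.0272 to 0.0441 CPM on day 1, and it covers counting error only. Since no odd count occurred, fragments may have been counted more than once, and folds against this floor would then be too large. Where levels of a day lie near the floor, the size of a change is uncertain. This holds for OAS1, RTL1 and CDKN2C on day 1 and for MSGN1, EGR2 and TNFRSF9 on day 2.

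The 54 gene lists were written from general knowledge, and lists may share genes. They and the genes named were chosen with earlier results of these data known. The rule for named genes took the 4 markers and a fixed set of streak, endoderm, Wnt and pluripotency genes; of the called genes whose days did not overlap and whose higher day averaged 5 CPM or more, the 12 that rose most and the 12 that fell most; per list up to 6 called members in each direction or, with none, the 2 of highest level; and up to 10 uncalled genes of at least 20 CPM that were lowest in adjusted p in the fit of 6 libraries. It gave 195 genes, of which part is described and some are not reported here. TCF7 was added after its value was seen. Promoters came from RefSeq in build GRCh38.p14, matched by symbol, and no coordinates were carried between builds. Column names matched the sample titles, and 0 sample columns were left unused.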

Additional observations from a re-analysis of the deposited data

How the results depend on the processing

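The count of genes higher and lower on day 2 (857 and 582) was 880 and 556 with DESeq2's size factors, 758 and 593 with library totals alone, 874 and 511 with no filter, 839 and 608 with CPM over 1 in 3 libraries, 881 and 637 with counts halved and 1065 and 610 without replicate 1 of days 3 and 4. It moved by more than 1.5 times to 1405 and 1053 with DESeq2, 1506 and 1308 in the fit of the 6 libraries, and 517 and 293 against a 1.5-fold change. The replicate block, with counts given below, also moved it by more than 1.5 times. So did, in either or both directions, leaving out any library other than day 2 replicate 4. The share of called genes that were higher was 59.6% in the main setting, 63.1% with no filter, 53.5% in the fit of the 6 libraries, 50.7% there with the replicate block, 72.1% without day 2 replicate 1 and 72.8% without day 2 replicate 2. The median over all genes stayed between -0.06 and 0.06 on the log2 scale in every setting. With a library left out the counts ran from 384 to 775 higher and from 183 to 447 lower, and fewer libraries were fitted there. The 3 replicate numbers are shared by the days, and the correlations do not settle whether they pair the libraries. The correlation of deviations between same-numbered libraries of day 2 and day 1 was -0.07 for replicate 1, 0.27 for replicate 2 and 0.22 for replicate 4. Replicates 2 and 4 correlated best with their own number, and replicate 1 did not. The main fit did not use the replicate number. With the replicate number as a block, 1298 genes were higher and 1168 lower, and 1518 and 1479 with the block in the fit of the 6 libraries. Of the 195 named genes 163 were called, and 0 of these changed sign in a setting that tested them. Of the 32 that were not called, 6 changed sign in at least 1 setting, namely GSC (-0.96 without day 2 replicate 4, 0.41 with all libraries), RPL4, RPL3, APOE, APOC1 and ATP5B. Up to 6 lost their call with another scaling or with no filter, CPM over 1 in 3 libraries tested 188 of the 195 and each of those kept its side of the threshold, DESeq2 gave an adjusted p for 193, 32 lost their call against a 1.5-fold change, and 17 to 52 with a library left out, while 16 gained one in the fit of the 6 libraries. The cause of these moves was not tested. Genes of about 2-fold change or less lie near the smallest change that was called.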

Other observations

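Few metabolic and stress genes were called, beside 8.27% of all genes called in either direction. The counts of these lists were not tested against that share and are not read as a change of the lists. Of 21 glycolysis genes, the glucose transporter genes SLC2A1 and SLC2A3 fell and 0 rose. DESeq2 called 2 lower and 1 higher, and edgeR had 2 lower and 1 higher at an unadjusted p under 0.05. SLC2A3 had 1112, 1100 and 1292 CPM on day 2, against 3575, 3283 and 2282 CPM on day 1 (-1.38, SE 0.31, adjusted p = 0.0104 by edgeR). Both calls were lost without day 1 replicate 1, day 2 replicate 1 or day 2 replicate 2, with adjusted p-values of 0.0524 to 0.103. Of 26 cholesterol synthesis genes, 2 fell, HSD17B7 among them, and 0 rose (2 lower and 0 higher by DESeq2, 3 lower and 0 higher at an unadjusted p under 0.05). HSD17B7 had 14.5, 14.98 and 9.65 CPM on day 2, against 44.1, 33.0 and 42.8 CPM on day 1 (-1.62, SE 0.31, adjusted p = 0.00429), with 1 or 2 members lower when a library was left out.

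Of 18 hypoxia target genes, edgeR called 0 in either direction with all 15 libraries, 6 were higher and 0 lower at an unadjusted p under 0.05, DESeq2 called 1 higher and 0 lower, and the fit of the 6 libraries alone 6 higher and 0 lower. P4HA1, a collagen-modifying enzyme gene, had 217, 250 and 156 CPM on day 2, against 95.6, 124 and 104 CPM on day 1 (0.94, SE 0.38, adjusted p = 0.148). Of 22 ATF4 stress response genes, VLDLR rose and ALDH1L2 fell, calls that were lost in 4 and 5 of the 6 fits with a library left out (adjusted p of 0.0519 to 0.0862 and 0.0715 to 0.163), and 5 fell without day 2 replicate 4, the library in which all 22 were highest on day 2. Of 25 interferon response genes, OAS1 and its relative OAS3 rose and 0 fell, and 2 fell without day 2 replicate 4. DESeq2 called 2 higher and 3 lower, and edgeR had 4 higher and 4 lower at an unadjusted p under 0.05. OAS3 had 1.20, 2.21 and 3.64 CPM on day 2, against 0.416, 0.411 and 0.290 CPM on day 1 (2.66, SE 0.58, adjusted p = 0.01005), and its call was lost without day 1 replicate 4 (adjusted p = 0.0552), where 1 member of the list rose.

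Metallothionein genes, which bind zinc and copper, were tested in 7 members, with 0 called by edgeR or DESeq2 in either direction and 0 at an unadjusted p under 0.05. MT1X had 1.91, 1.81 and 2.80 CPM on day 2, against 7.21, 3.94 and 5.14 CPM on day 1 (-1.32, SE 0.80, adjusted p = 0.361). Of 80 ribosomal protein genes 0 were called by edgeR or DESeq2 and 0 had an unadjusted p under 0.05. RPL3 had 800, 859 and 2478 CPM on day 2, against 1812, 1023 and 1479 CPM on day 1, so that the spread within day 2 was wider than the difference between the days. Of 51 long intergenic noncoding RNA genes, 3 rose and 0 fell (6 higher and 1 lower by DESeq2, 7 higher and 3 lower at an unadjusted p under 0.05 by edgeR). LINC00479 had 3.77, 3.94 and 4.36 CPM on day 2, against 0.0832, 0.117 and 0.109 CPM on day 1 (5.27, SE 1.05, adjusted p = 0.00557), with no overlap between the days.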
